A study of Saccharomyces cerevisiae with 24 samples.

Results

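Y' elements are repeats found next to the telomeres of budding yeast. In the W303 annotation that the authors built for their reads, 54 of 6264 features carry the type "Y element", and all 54 were taken as members. Each is an open reading frame (ORF) that had high similarity to the Y' helicase but no gene name of its own. The features share 1 name, carry no strand and have no note on size or function, so their positions and lengths are the data. They covered 109529 of 12297572 nuclear bases, or 0.891%.

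A yeast chromosome end carries an X element next to the telomeric repeat, and many ends have Y' elements inserted between the X element and the repeat. Long and short Y' elements are known, both contain a match to the core consensus of a replication origin (ARS) and an ORF for a DNA helicase, and the intact helicase genes of the reference strain S288C are named YRF1. Y' elements can be amplified by recombination, which is best known from cells that survive without telomerase.

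The study measured where FLAG-tagged Uls1, an Snf2-family ATPase, and HA-tagged Top2, the type II topoisomerase, sit on the genome by ChIP-seq in strain W303 RAD5+. It has 24 libraries in 12 groups of 2, each pooled from ChIP replicates, with precipitated DNA and input as separate groups. FLAG-Uls1 was precipitated from WT cells after 2 h with 100 µM of the Top2 poison acriflavine (ACF) or in YPD without it, and HA-Top2 from uls1Δ and WT cells, each after 2 h with 250 µM ACF or without it. HA-Top2 strains carry the tagged TOP2 as an additional copy with its own promoter, and Y' elements, the 5000 bp at each chromosome end and the TKP/TY elements (gag-pol genes of Ty retrotransposons) were among the repeat classes over which signal was compared. Read depths and ChIP signal were not analysed here, so no difference between these groups is described.

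Because the sequence decides what an annotated Y' length means, the Y' ORFs of S288C were read first. S288C (RefSeq, build R64) has 17 of 32 chromosome ends whose telomere region is noted to hold a Y' element. These regions contain 61 ORFs of at least 300 bp that start with ATG and point to the chromosome end. Of the 39 genes annotated there, 33 point to the end, and this includes all 8 YRF1 genes. Chromosome ends are written here as the chromosome number with L or R for the left or right end.

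ORFs of very different length began with the same bases. The first 60 bases of 18 of these ORFs, from 16 ends, were identical, and the ORFs were 369, 525, 609, 816, 1182, 5388 and 5391 bp long. A second start was shared by 8 ORFs from 7 ends with lengths of 873, 1104, 1179, 2994 and 3099 bp. Both starts are shown, with the start codon in capitals, because 5 of the 6 lengths that recur in W303 are lengths of such ORFs, and 1101 bp is not. The first is that of YRF1-1 at the right end of chromosome 4 (chr4:1526321-1526380, plus strand, R64), and the second that of YLL066C at the left end of chromosome 12 (chr12:9054-9113, minus strand, R64).
YRF1-1 start: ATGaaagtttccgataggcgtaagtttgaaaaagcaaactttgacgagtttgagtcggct
YLL066C start: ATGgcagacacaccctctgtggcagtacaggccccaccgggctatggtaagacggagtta

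The other edge was shared as well. Of 18 ORFs of 1500 bp or longer, 10 ended with the same 60 bases, 5 with a form that differs by 7 single-base edits and 2 with one that differs by 8. Edits were counted over the fixed 60 bases. The last 2 forms are shorter inside, so the leading bases cca that they take in count as edits. The remaining one was YLL067C, the 2994 bp ORF nearest to the left end of chromosome 12. The endings of YRF1-1 (chr4:1531652-1531711, plus strand), YRF1-6 (chr14:371-430, minus strand) and YIL177C (chr9:483-542, minus strand) stand for the 3 forms, with the stop codon in capitals.
YRF1-1 end: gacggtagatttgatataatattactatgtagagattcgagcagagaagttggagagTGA
YRF1-6 end: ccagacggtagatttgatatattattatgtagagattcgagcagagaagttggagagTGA
YIL177C end: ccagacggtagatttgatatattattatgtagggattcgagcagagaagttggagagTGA
These 3 endings belonged to ORFs of 1644 to 5391 bp.

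Lengths of the W303 features ran from 315 to 5676 bp, with a median of 1362 bp and quartiles of 816 and 3076 bp. The features were divided into 4 classes. The shortest class, under 1000 bp, held 18 features (33.3%) but 9.91% of the summed length. There were 13 features from 1000 to under 2000 bp, 14 from 2000 to under 4000 bp and 9 of 4000 bp or longer. The longest class ranged from 4140 to 5676 bp, held 16.7% of features and 39.0% of the length, and had all of its 9 features near a chromosome end. The closest lengths at that class edge were 3429 bp below it and 4140 bp above it.

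Lengths recurred. There were 42 distinct lengths, and 6 of them were used by 18 features. Lengths of 525 and 816 bp occurred 4 times each, 2994 and 3099 bp 3 times each, and 1101 and 1182 bp in 2 features each. The 4 features of 816 bp were at ends 2L, 3R and 12L (2 features), and those of 525 bp at 1R (2 features), at 12R and inside chromosome 16. An exact length in common with an S288C Y' ORF was found for 21 of 54 features (38.9%), against 189 of 5596 ORF features named after no Y' gene (3.38%) and 4 of 86 TKP/TY features. Of these 21 features, 12 had a length of ORFs with the YRF1-1 start and 6 a length of ORFs with the YLL066C start. The W303 sequence was not read, so an equal length does not show an equal sequence.

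**Figure D1:**
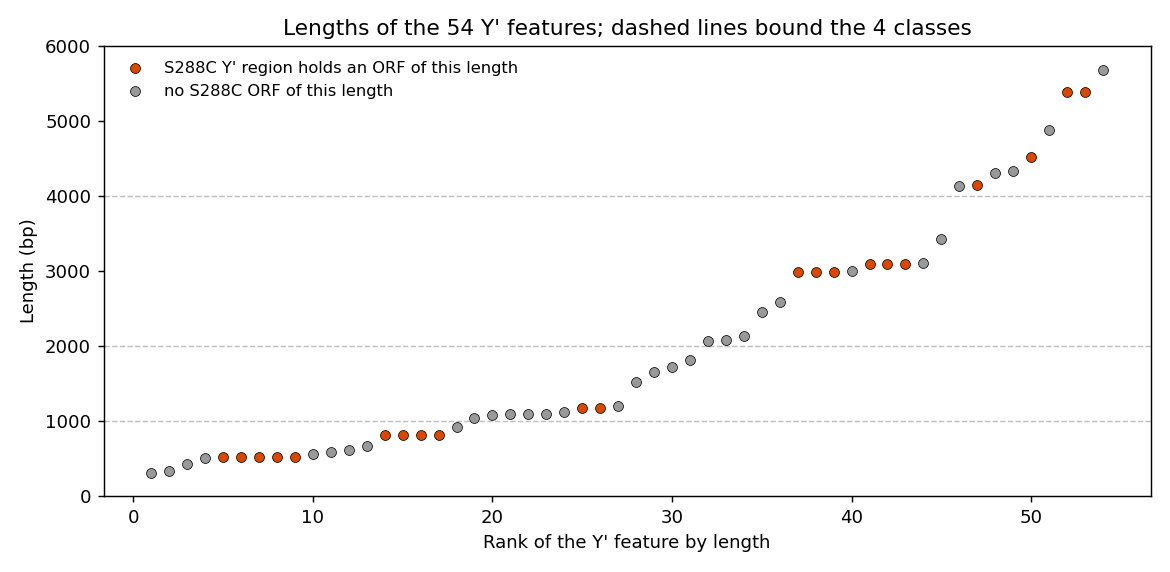
The 54 Y' features in order of length, in bp, with the class edges as dashed lines. Orange points are the 21 features that have an S288C Y' ORF of exactly the same length, and grey points the others. Steps at 525, 816, 2994 and 3099 bp are lengths that recur.

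A length of whole codons was the rule, with 48 of 54 lengths being multiples of 3. The 6 others were 592, 562, 1207, 1516, 2069 and 4336 bp long. Of these 6, 5 were the feature nearest to its chromosome end, and 3 of those, at 5R, 13R and 15R, ran to the last base of the assembled chromosome. The 592 bp feature at 5L was the exception and lay 5485 bp from the end. No other Y' feature reached a last base.

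Near an end, meaning with the closest edge within 30000 bp of it, were 48 of 54 Y' features (88.9%), against 305 of 5613 nuclear ORF features (5.43%) and 8 of 86 TKP/TY features (9.3%). The farthest of the 48 was 25300 bp from its end, and the closest of the rest was 30626 bp away, on the right arm of chromosome 12. The remaining 5 were on chromosome 16, at least 206798 bp from the left end. The median distance to the end was 4871 bp for the 48 features and 5894 bp for all 54. Of the Y' bases, 45848 (41.9%) were within the 5000 bp at an end, where they took up 28.7% of the bases, so the end windows and the Y' class of the ChIP analysis overlapped in part. Inside the windows were 16 whole features and parts of 8, while 30 features were outside them.

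Exactly 16 of the 32 chromosome ends had a Y' feature and 16 had none. Ends with features were 1R, 2L, 2R, 3R, 4R, 5L, 5R, 6L, 8L, 10L, 12L, 12R, 13R, 14L, 14R and 15R. Both ends of chromosomes 2, 5, 12 and 14 had them, and neither end of chromosomes 7, 9, 11 and 16. The 7 left ends held 14 features with 28626 bp and the 9 right ends held 34 with 70243 bp. A single feature was found at 5 ends, and the median was 2 per end. The end 4R held the most, 8 features with 20976 bp, followed by 12R and 15R with 6 each and 12L with 5. The outermost feature of an end began a median of 685.5 bp from the end and within 1000 bp at 12 of 16 ends.

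**Figure D2:**
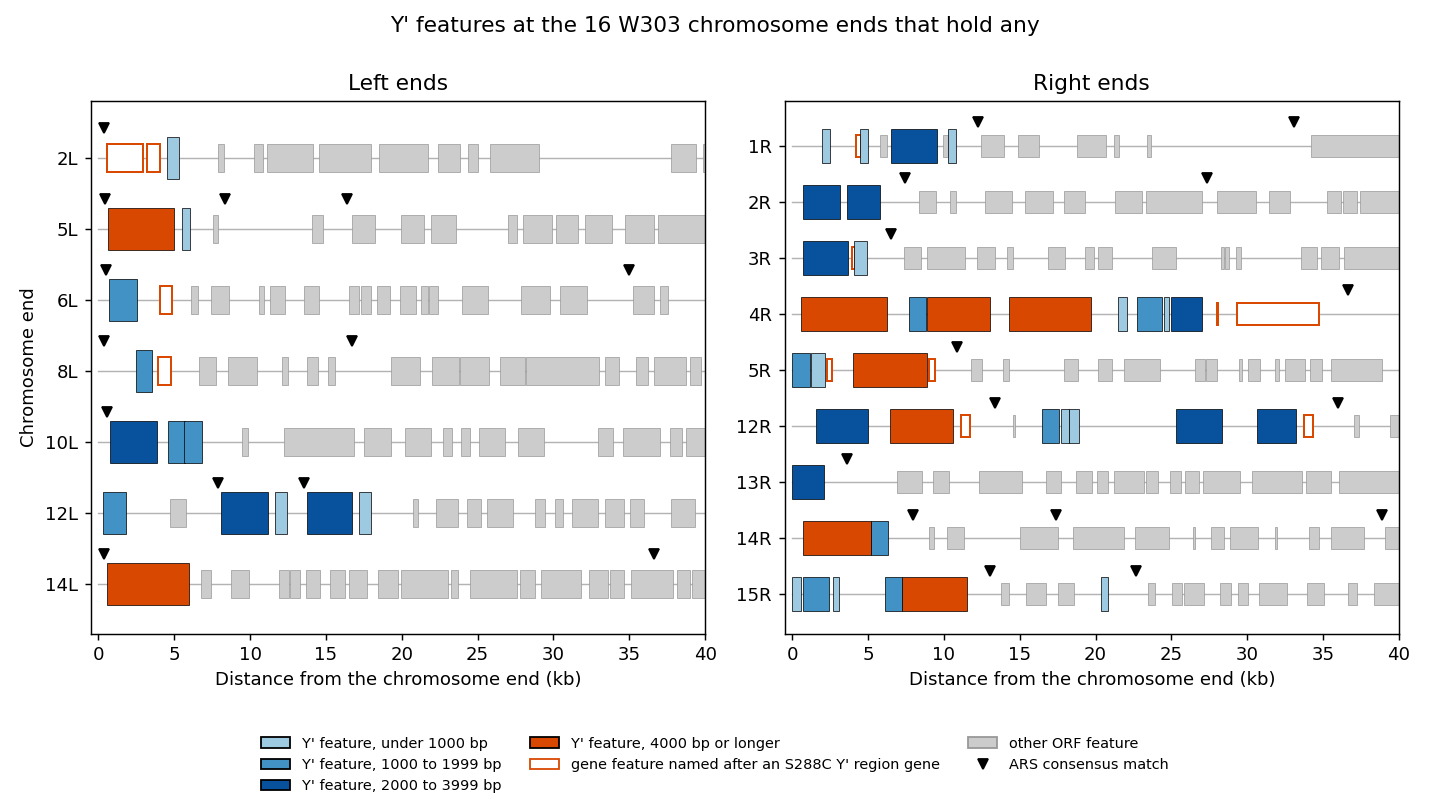
Maps of the 16 W303 ends with a Y' feature, drawn from the chromosome end at 0 kb inwards, left ends on the left and right ends on the right. Filled colours are Y' features by length class, open boxes gene features that carry the name of an S288C gene from a Y' region, grey boxes other ORFs, and triangles ARS consensus matches. At 4R Y' features fill most of the outer 27 kb, and at 12R and 15R other ORFs stand between groups of Y' features.

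Runs were formed from Y' features with gaps of up to 10000 bp and no other ORF feature between them. There were 12 runs of 2 or more, with 40 features, and 14 single features. The 4 features at 1R counted as single, since gene features named YRF1-5, YLR466C-B and UIP3 lay between them. The longest was the run of 8 at 4R, which spanned 26440 bp. From the inner to the outer side its features were 2082, 315, 1656, 618, 5391, 4140, 1098 and 5676 bp long, with gaps of 115 to 1799 bp. Next in size were 5 features at 12R over 16740 bp, 5 at 15R over 11518 bp and 4 at 12L over 9867 bp. Within runs, 28 pairs of neighbours were formed with a median gap of 435 bp, and 19 of the pairs were at most 1000 bp apart. In 3 pairs the neighbours shared bases, 32 at 10L, 32 at 14R and 13 at 15R.

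Some neighbours together spanned about the length of a single S288C ORF. At 15R, features of 4302 and 1101 bp overlapped by 13 bp and spanned 5390 bp together, beside 5391 bp for YRF1-1, YRF1-5 and YRF1-8. At 4R, features of 4140 and 1098 bp stood 115 bp apart and spanned 5353 bp. An undivided 5391 bp feature was at 4R and an undivided 5388 bp feature, the length of the main ORF of YRF1-3, YRF1-6 and YRF1-7, at 14L.

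Layouts were compared by 3 numbers, the inner length, the gap and the outer length. The layout of 816 bp, a gap of 414 bp and 2994 bp was found once at the end 12L in W303 and at 12L (in 2 copies) and 13L in S288C. That of 1182 bp and 4515 bp sharing 32 bases was found at 14R in W303 and at 9L and 10L in S288C. At 12L the next layout outwards, 2994 bp, a gap of 1311 bp and 816 bp, was also that of 12L in S288C. In total 3 of the 28 W303 pairs had an S288C layout exactly, all with the same order towards the end, and none had one in the opposite order. At 3R the 816 and 2994 bp features were also 414 bp apart, from 336994 to 337409, but a 168 bp gene feature named YRF1-7 lay between them and split the run. The 32 bases shared by both ORFs at 9L (chr9:4966-4997, minus strand, R64) are the same at 10L and are shown with the start codon of the outer ORF and the stop codon of the inner ORF in capitals.
Overlap at 9L and 10L: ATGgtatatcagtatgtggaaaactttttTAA

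Orientation could not be read from the features, since none of the 54 has a strand. Some ORFs of the same family were listed as ordinary genes, because they carry the systematic name of a gene from an S288C Y' region. There were 17 such gene features, 12 of them near an end, and 6 of those had a strand. Of the 6, 5 pointed to their end, namely YRF1-5 (309 bp, 1R), YBL111C (873 bp, 2L), YPR203W (5391 bp, 4R), YPR202W (63 bp, 4R) and YRF1-3 (5388 bp, 7R). The exception was YRF1-7 (168 bp, 3R). Only 3 of the 8 YRF1 names were used in the annotation, and at 168 and 309 bp the features called YRF1-7 and YRF1-5 were much shorter than the genes of those names in S288C, which span 5728 and 5391 bp.

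The labels Y' element and gene were both used within single elements. At 2L, 3 ORFs stood in a row, YBL113C of 2379 bp and YBL111C of 873 bp as genes and 816 bp as a Y' feature. All 3 had the length of an ORF at 2L in S288C and started 304 bp farther from the end than in S288C. At 8L a Y' feature of 1041 bp had the 816 bp ORF YHL049C beside it at a gap of 414 bp, listed as a gene. At 4R the 8 features were preceded on the inner side by YPR203W of 5391 bp (1540408 to 1545798), so that ORFs of the Y' family reached 34722 bp from the end. At 7R the gene feature YRF1-3 of 5388 bp ended 596 bp from the end with no Y' feature beside it. With such genes counted, 17 ends had an annotated feature of the family and 15 had none.

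The ARS matches next to the elements lay differently at left and right ends. The W303 sequence was not read, so the orientation of the W303 elements was not tested. The annotation searched 8 words of 11 letters, and the word found beside Y' elements was TTTTATGTTTA, which 47 nuclear ARS features carry. Within 300 bp on the side of the end, 7 ARS features lay next to a Y' feature or to a gene feature of the family, and all 7 had this word. The distance was 187 bp in 6 cases, at 2L (beside YBL113C), 5L, 6L, 12L (2 features) and 14L, and 183 bp at 10L. All 7 were at left ends and 0 at right ends. On the inner side the word lay 1501 to 1897 bp away in 11 cases (median 1617 bp), all of them at right ends. At 8L the word was at 384 to 395, 2094 bp outside the Y' feature, and at 1R another word of the list lay 1467 bp inside.

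In S288C the same word was looked for on both strands, in the 300 bp after the stop codon of 19 Y' ORFs. It was present after 17 of them, always 188 bp from the stop codon except for 184 bp at 9L and 10L. At left ends 9 of 11 ORFs had it on the plus strand and 0 on the minus strand, and at right ends 8 of 8 had it on the minus strand and 0 on the plus strand. On the inner side of the elements it was on the minus strand at 10 of 10 left ends and on the plus strand at 6 of 7 right ends, and 1 right end, 12R, also had a match on the minus strand. In the same 300 bp after other protein-coding genes the word was present on either strand for 25 of 5963 genes (0.419%). The ARS features of W303 carry no strand, and their nuclear number, 277, is set beside 280 matches of the 8 words on the plus strand of S288C and 274 on the minus strand. Read on the plus strand only, the S288C elements give the W303 pattern, with the word outside the element at left ends and inside it at right ends. A feature is given as 12 bp for a word of 11 letters, so that 187 bp in W303 is 188 bp counted from the word if the extra base lies at its end.

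**Figure D3:**
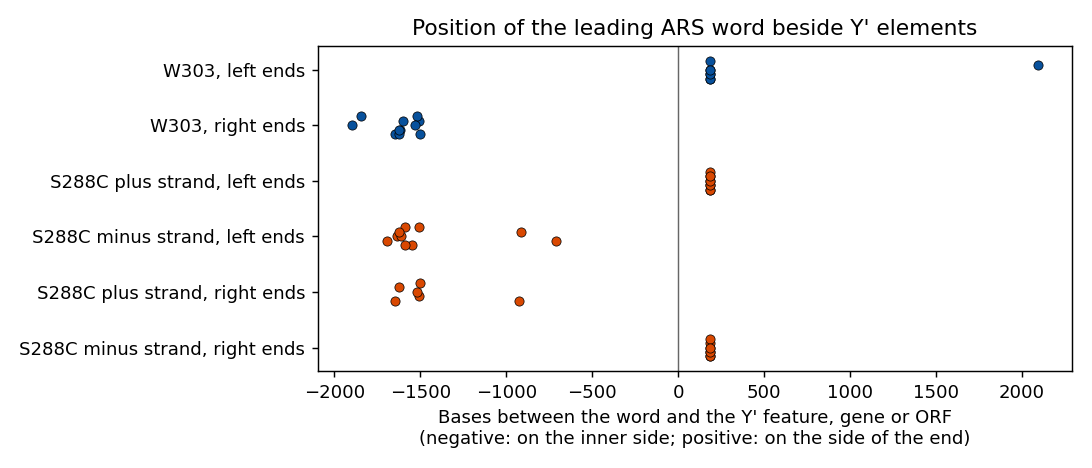
Distance in bases from the word TTTTATGTTTA to the nearest Y' feature, gene feature of the family or Y' ORF, with the inner side negative and the side of the chromosome end positive. Blue points are W303, where left ends have the word at 183 or 187 bp on the outer side (and 1 at 2094 bp) and right ends only on the inner side, and orange points are S288C by strand.

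The bases in front of the word were close to identical between elements. From the stop codon through the word, 12 of the 16 other S288C elements were identical to YRF1-1 over 202 bases, and the largest difference was 10 single-base edits, at 9L and 10L, where the stretch has 198 bases. The last 30 bases are shown for the 3 forms in the direction of the helicase ORF, so the word appears as its reverse complement, in capitals. They are from YRF1-1 (chr4:1531881-1531910, plus strand), YBL113C (chr2:81-110, minus strand) and YJL225C (chr10:271-300, minus strand), all in R64.
YRF1-1: aaagacaatctataaaaagTAAACATAAAA
YBL113C: aaagacaacctataaaaagTAAACATAAAA
YJL225C: aaagacagtctataaaaagTAAACATAAAA
A match to the word is a description of the sequence and does not show that an origin is used.

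Some ends had the word but no Y' feature. At 16L it lay from 636 to 647, and the next feature, FDH2, a formate dehydrogenase gene, began 18273 bp farther in. From the first base of the word to that of FDH2 there were 18285 bp in W303 and 18288 bp in S288C, where YRF1-7 lies in this stretch. The W303 annotation had no Y' feature there. At 7R, where YRF1-3 was listed as a gene, the word lay 1519 bp on its inner side.

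Ends with Y' elements were compared between both genomes. Of 16 W303 ends with a Y' feature, 11 (68.8%) also had a Y' element noted in S288C, and these were 64.7% of the 17 S288C ends. By these labels, only in W303 were 1R, 2R, 3R, 13R and 14R, and only in S288C 7R, 8R, 9L, 13L, 16L and 16R. Since a label can differ while the sequence does not, the bases beyond the outermost shared gene were measured. A shared gene was one listed once in W303 and lying within 60000 bp of the same end in S288C, and names from Y' regions were left out.

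Ends with Y' only in W303 were longer there at 4 of 5 ends. The stretch beyond the shared gene was 6654 bp longer at 2R (beyond COS2), 5736 bp at 3R (beyond AAD3, an aryl-alcohol dehydrogenase family gene), 6941 bp at 14R (beyond COS10) and 20983 bp at 1R (beyond SWH1). At 1R the Y' features, 4572 bp in sum, reached only 10771 bp from the end. At 13R, where the only feature ran to the last base, the stretch was shorter (W303 minus S288C, -3004 bp beyond FET4, a low-affinity iron transporter gene). Ends with Y' only in S288C were shorter in W303 at 8R, 9L and 13L, with differences of -5773, -11135 and -5457 bp. They were slightly longer in W303 at 16L (552 bp) and at 7R (247 bp), where the element was listed as the gene YRF1-3. With Y' in both, 11 of 11 ends were longer in W303, by 219 to 38871 bp, and the largest differences were at 4R, 12R (22127 bp) and 15R (16162 bp). With Y' in neither, 6 of 10 ends were longer in W303, and the median difference was 128 bp, over a range of -4467 to 884 bp. The shared gene differed in annotated length between the genomes at 4L, 6L, 9R and 13L, so the edge measured from may differ there. This is a description of 1 assembly of each strain, and an incomplete assembly of an end cannot be told apart from a shorter end.

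**Figure D4:**
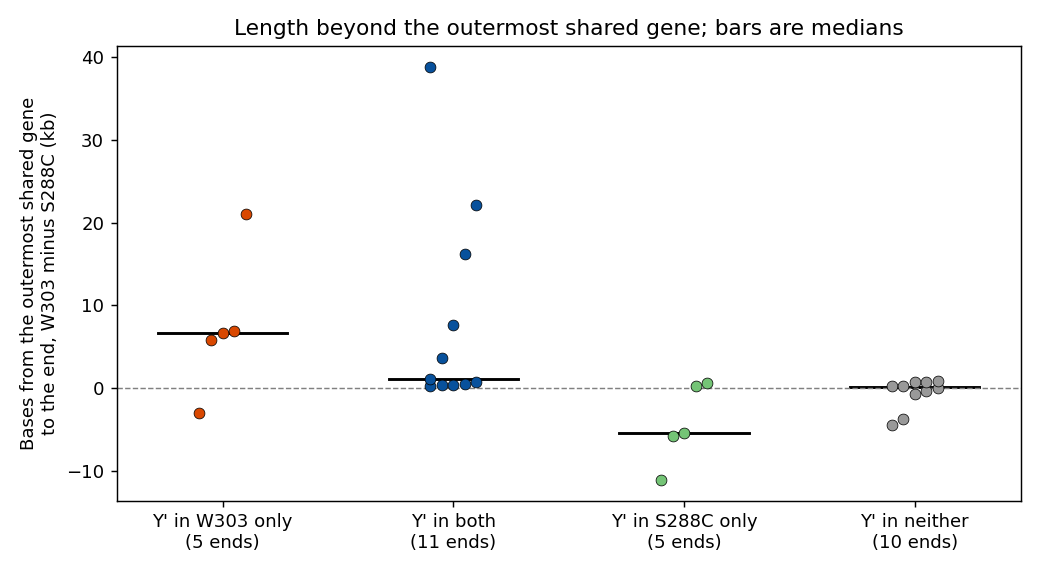
Bases from the outermost shared gene to the chromosome end, W303 minus S288C in kb, for 31 ends, with 1 point per end. Groups follow the labels, a Y' feature in W303 and a noted Y' element in S288C, and bars are medians. The group with Y' in S288C only thus holds 7R, where W303 lists YRF1-3 as a gene. Ends with Y' in W303 only have a median of 6654 bp and those with Y' in S288C only a median of -5457 bp, while ends with Y' in neither have a median of 128 bp, with 7L at -4467 bp and 10R at -3771 bp. The end 16R has no shared gene of this kind and is not drawn.

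At some ends with Y' in both genomes, neighbouring features and words were displaced by the same number of bases. At 12L the features of 2994 and 816 bp, the next 816 bp feature and an ARS word all started 7636 bp farther from the end in W303 than ORFs or words in S288C, and AYT1, the first shared gene, lay 7635 bp farther. Outside them W303 had a 3102 bp feature in place of a 2994 bp ORF, then YDR541C (1035 bp) and a Y' feature of 1516 bp that began 329 bp from the end. At 14L the 5388 bp feature and the word were both displaced by 229 bp, but the shared gene COS1 by 430 bp, so the distance from the feature to COS1 was not the same in W303 as in S288C.

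The last ORF on the inner side of the innermost Y' feature within 30000 bp of the end lay a median of 2530.5 bp away, with a smallest distance of 121 bp (YER189W, 5R). At 12R this limit left out the Y' feature 30626 bp from the end, which lies between YLR462W and the feature used, so the distance there was 5434 bp. With runs counted whole, a choice made after seeing the data, YLR462W was 522 bp from the innermost feature at 12R, the median was 2060.5 bp and the largest distance 4820 bp (FET4, 13R). Genes of the PAU family, which encode small seripauperin mannoproteins, were last at 5 ends. PAU9 was 2595 bp from the Y' feature at 2L, PAU1 2645 bp at 10L, PAU6 2738 bp at 12L and 2644 bp at 14R, and PAU21 2601 bp at 15R. These 5 distances thus lay between 2595 and 2738 bp. COS2, a member of a family of subtelomeric membrane proteins, lay at a like distance of 2598 bp at 2R, AAD3 at 2466 bp at 3R, IMD2, an IMP dehydrogenase gene, at 1655 bp at 1R, FET4 at 4820 bp at 13R and YEL073C at 1516 bp at 5L. At 14L the last ORF had no S288C name and lay 802 bp away. At the other 5 ends it was a gene of the Y' family itself, YPR202W (946 bp, 4R), YER189W (5R), YFL064C (1534 bp, 6L), YHL049C (414 bp, 8L) and YLR462W (12R). Beyond these, the next ORF was YDR541C at 13227 bp at 4R, YER188W at 2885 bp at 5R, YFL063W at 3570 bp at 6L and COS8 at 3089 bp at 8L. At 12R it was PAU4, 3805 bp from the innermost feature of the whole run.

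ORFs between a Y' feature and the end were found at 7 of the 16 ends, 13 ORFs in all. Of these, YRF1-5, YRF1-7, YBL113C, YBL111C, 1 copy of YER189W and 1 of YLR462W are Y' family names. At 1R there were also features named UIP3 and YLR466C-B, at 12L YDR541C and at 12R PAU4 of 168 bp. The UIP3 feature shared 17 bp with a 525 bp Y' feature, as the 309 bp YRF1-5 feature did with the other 525 bp one. At 16R in S288C, Y' ORFs of 525 bp (ending at 943896) and 309 bp (starting at 943880) overlap too. Whether UIP3 and YLR466C-B are Y' ORFs under other names was not tested. At 15R a second set of FEX1, a fluoride exporter gene, ERR1, an enolase-related gene, and PAU21 stood between a 513 bp Y' feature and a group of 5 others. In both sets at 15R PAU21 was 495 bp long and ERR1 had a copy of 1314 bp, while FEX1 was 1077 bp in the outer and 657 bp in the inner set. The word TTTTATGTTTA followed both PAU21 copies, at 1095299 in the outer and 1085629 in the inner set, and a Y' feature came next, 1501 bp outside the outer word and 1842 bp outside the inner one. At 12R the order of PAU4, the word, YLR462W of 609 bp and Y' features was likewise found in 2 sets, the outer word at 1070887 and the inner at 1048272. These right ends thus had Y' features on both sides of other subtelomeric genes.

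The outermost ORF listed as a gene was a median of 6839 bp from the end at ends with a Y' feature (583 to 27983 bp). At ends without, the median was 2107 bp (356 to 18920 bp). Y' features were not counted as ORFs here, so a larger distance at ends that hold them is partly set by the labels. At 4R, where the distance was 27983 bp, a Y' feature lay 597 bp from the end. The ranges overlapped. The outermost ORF was within 5000 bp at 7 of 16 ends with a Y' feature and at 13 of 16 without. At the 7 ends it was a gene feature of the Y' family at 1R, 2L, 3R, 5R, 6L and 8L, and YDR541C at 12L. The smallest distance, 583 bp, was that of YBL113C at 2L. Among the ends without a Y' feature, 7R had YRF1-3 at 596 bp. At the ends without a Y' feature the outermost genes included PAU8 (1L), PAU11 (7L), PAU16 (11L), COS3 (13L), MPH3 (10R), a maltose permease gene, GEX1 (3L) and GEX2 (11R), glutathione exchangers, VTH1 (9L), IMD1 (8R) and AAD15 (15L).

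Gene families known from subtelomeres were counted within 30000 bp of the ends. Ends with a Y' feature had 46 of 138 ORFs in the listed families (33.3%) and ends without had 41 of 167 (24.6%). The list includes YRF1, the Y' helicase itself, with 2 and 1 of these ORFs. The PAU genes numbered 10 at 9 ends with Y' and 6 at 6 ends without, and the COS genes 6 and 4. FLO genes, which encode flocculins, numbered 0 and 4, and MPH genes 0 and 2. SNZ and SNO genes, of vitamin B6 synthesis, numbered 3 and 2 at ends with Y' and 0 and 0 at ends without. ERR genes, 3 in number, were all at 15R. Several other families were even, with HXT genes 3 and 3, AAD 4 and 4, MAL 3 and 3, THI 2 and 2, PHO 2 and 2 and VTH 1 and 1. These counts were not tested, because copies within an end are not independent. All 23 listed genes of telomere maintenance, among them the telomerase subunits EST1, EST2 and EST3, RIF1, SIR3, YKU70 and RAD52, had a feature, 22 with the S288C size. RAD52, the recombination protein, was noted as different at 1515 bp. None of the 23 lay within 30000 bp of an end.

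The 5 Y' features inside chromosome 16 belonged to an array. It followed ARR3, an arsenite exporter gene (190542 to 191756), which is the last gene before the Y' element at 16R in S288C. After ARR3 came the gene features YPR202W (525 bp), YPR203W (3099 bp) and YPR204W (2565 bp), then Y' features of 3099 bp (206799 to 209897) and 3099 bp (212569 to 215667), a second YPR202W of 3087 bp (218339 to 221425), and Y' features of 525, 339 and 1083 bp. The last base of the 5 long ORFs recurred at steps of 5806, 5770, 5770 and 5758 bp. Those with a strand were on the plus strand, which at 16R of S288C points to the end. The word TTTTATGTTTA lay 1297 bp after ARR3 in both W303 and S288C, and the ORFs of 525 and 3099 bp began 2235 and 3466 bp after ARR3 in both.

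The array was followed by TKP/TY features of 810 bp (225026 to 225835) and 1323 bp (226991 to 228313), the first of them 142 bp after the last Y' feature, and then by YPL257W at 233522. Between ARR3 and YPL257W were 41765 bp. The order of genes along W303 chromosome 16 was that of S288C in 3 blocks. A first block of 17 ORFs ran from FDH2 to THI21, a second of 57 from MEP3, an ammonium permease gene, to ARR3, and the last of 360 from YPL257W to RRP9. In S288C the second block is the outermost part of the right arm. RRP9, a small nucleolar ribonucleoprotein gene, was the last ORF of W303 chromosome 16, at 10876 bp from the right end, with 5 TKP/TY features of 357 to 3468 bp outside it and no Y' feature. The S288C end 16R with its Y' element was thus inside the chromosome in this assembly, extended to an array, and not at an end. Whether this is the arrangement in the cells or a product of assembly was not tested.

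**Figure D5:**
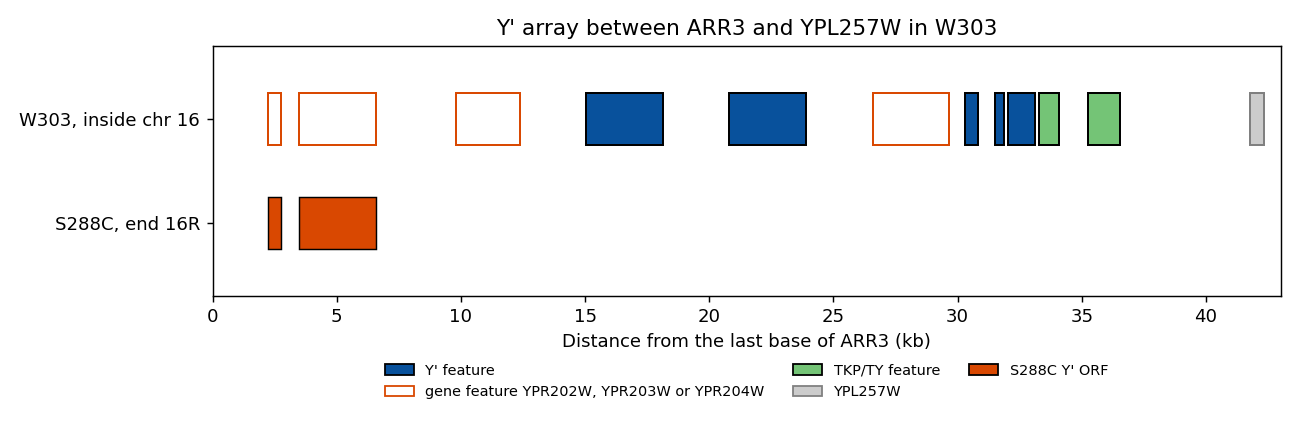
Features after ARR3 on W303 chromosome 16 (upper row) and Y' ORFs of a length also found among W303 features at the end 16R of S288C (lower row), by distance in kb from the last base of ARR3. The first ORFs of 525 and 3099 bp start at the same distances in both, and W303 continues with ORFs at steps of 5758 to 5806 bp, smaller Y' features and TKP/TY features before YPL257W.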

How the data were processed

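The data analysed were the deposited W303 annotation, a table of positions in bp on the assembly ASM216351v1. Per the file headers and the study's methods, the authors ran the Yeast Genome Annotation Pipeline, took names and size notes from S288C, labelled unidentified ORFs with high similarity to Y' helicases as Y' elements, and searched ARS words with Biopython. The submitters' processing notes name R64 as a build. The tools listed there for the reads include deepTools, MACS2, BWA and SAMtools, with versions not given in the sources used here. ChIP libraries were not analysed here.

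Every feature of type "Y element" was a member. ORFs were features of type gene. Python 3.11.15 with numpy 2.4.6 and matplotlib 3.10.9 computed distances edge to edge, counting an end as within 30000 bp, runs at gaps up to 10000 bp and ARS reach as 1000 bp. S288C values come from RefSeq R64 in its own coordinates, with ORFs of at least 300 bp. W303 genes were matched to S288C by systematic name, with shared genes within 60000 bp of the S288C end. No test was made, since the annotation is a single genome with no replicate. Genes named are the last ORF at each end with a Y' feature, ORFs outside it, ORFs flanking interior features, the YRF1 genes and members of fixed lists. Outermost genes of ends without Y' features, genes that anchor the S288C comparison and the blocks of chromosome 16 were chosen after their values were seen. Members and lists were chosen with earlier results of these data known. Alternatives changed distances, class edges, gaps and which ORFs count.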

Additional observations from a re-analysis of the deposited data

How the results depend on the processing

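The number of Y' features near an end was 34, 42 and 49 at 10000, 20000 and 50000 bp, against 48 at 30000 bp, and the ends without one stayed at 16 in each. Class counts moved with their edge. The longest class held 15 features from 3000 bp and 3 from 5000 bp, against 9 from 4000 bp, and the shortest 3 under 500 bp and 27 under 1500 bp, against 18 under 1000 bp. Runs numbered 12 or 13 with gaps of 1000, 5000 or 20000 bp or with other ORFs allowed. The median distance to the last ORF was 9639.5 bp with named and stranded ORFs only, which counts fewer ORFs, against 2530.5 bp, and stayed at 2530.5 bp with ORFs of 300 bp or longer. An ARS feature overlapped 0 Y' features, lay within 1000 bp of 6 and within 5000 bp of 29. The median length was 1719 bp with overlapping or touching features joined, against 1362 bp.

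In alternatives chosen after seeing the data, counting gene features of the Y' family as Y' gave 15 ends without an annotated feature and 16 runs. Leaving such ORFs out gave a median distance to the last ORF of 2644.5 bp. Counting runs whole with their end gave 2060.5 bp. The planned share of Y' features pointing to their end, and its alternatives, were not run because no Y' feature has a strand. No paired analysis was possible because the annotation holds no values of libraries and no result comes from a test. Lengths and gaps were compared without W303 sequence, and repeats may be misassembled, which was not tested.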
